A study of Mus with 10 samples.

Results

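Chemokines are small secreted proteins that guide the movement of leukocytes through receptors coupled to G proteins, and the colony-stimulating factors CSF1 and GM-CSF act on the survival and activation of myeloid cells. Group 1 innate lymphocytes release XCL1, CCL3, CCL4, CCL5 and GM-CSF, which draw in and license dendritic cells, monocytes and macrophages. The genes examined here were 9 named genes of this kind, picked by symbol, with no threshold on a measured value: the chemokine genes *Xcl1*, *Ccl3*, *Ccl4*, *Ccl5*, *Ccl1*, *Cxcl10* and *Cxcl2* and the growth factor genes *Csf1* and *Csf2*. All 9 were found among the 24564 genes of the table, and 8 passed the filter on low counts that left 11463 genes for testing. The gene that did not pass was *Cxcl2*.

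The RNA came from type 1 innate lymphoid cells (ILC1s) sorted from the livers of C57BL/6 mice, male or female, at 6 to 8 weeks of age, with 5 Ncr1+/+ libraries (labelled Ncr1-WT) and 5 Ncr1gfp/gfp libraries (labelled Ncr1-KO). Ncr1gfp/gfp mice carry *gfp* in place of *Ncr1*, the gene of the activating receptor NKp46. Both sorts were of lineage-negative, NK1.1-positive, CD49b-negative, CD49a-positive cells, but Ncr1+/+ cells were further gated on NKp46 and Ncr1gfp/gfp cells on GFP, so genotype and gate cannot be told apart. Neither the labels nor the methods say whether a library is from 1 mouse or a pool. The paper's figure legends speak of RNA pools without saying what was pooled. The p-values therefore measure the spread between these libraries. *Ncr1* itself was at 1913 to 2144 CPM (counts scaled by library size) in Ncr1+/+ libraries and at 141 to 356 CPM in Ncr1gfp/gfp libraries.

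The libraries held between 15796253 and 22623133 counts, and 3 counts, taken as the limit of detection, were worth 0.132 to 0.190 CPM, which covers counting error only. All 11 ILC1 marker genes found in the table were detected in every library, and 3 of them differed at an adjusted p under 0.05. *Itga1*, which encodes the sort marker CD49a, was at 928 to 1012 CPM in Ncr1gfp/gfp and 732 to 805 CPM in Ncr1+/+ libraries, *Gzmc* was higher in Ncr1gfp/gfp ILC1s by 0.72 on the log2 scale and *Il7r* fell by 0.97. Among lists of other cell types, the summed level of T cell markers was 715 to 928 CPM in Ncr1gfp/gfp and 549 to 666 CPM in Ncr1+/+ ILC1s. Most of it was *Cd3g*, at 595 to 793 CPM and 442 to 554 CPM. *Cd3e* was at 9.05 to 38.8 CPM and 2.80 to 6.85 CPM. *Cd3e*, *Cd3g* and *Cd8a* were higher in Ncr1gfp/gfp ILC1s at an adjusted p under 0.05, and the other 4 tested of 10 markers did not pass. The NK cell markers summed to 2754 to 4514 CPM in Ncr1gfp/gfp and 2494 to 2810 CPM in Ncr1+/+ ILC1s, most of it from *Gzmb*. The NK cell factor *Eomes* was at 5.06 to 17.7 CPM and 5.85 to 8.35 CPM. Of 9 tested NK cell markers, 3 were lower in Ncr1gfp/gfp ILC1s, and the 1 with an adjusted p under 0.05 was higher. Their median log2 fold change was 0.27. *Irf8* was among the lower, at 117 to 136 CPM in Ncr1gfp/gfp and 137 to 162 CPM in Ncr1+/+ libraries, without overlap (adjusted p = 0.0735). T and NK cells also express chemokine genes, and their part in the values that follow was not tested. In such bulk libraries, fewer cells that make a transcript and less transcript per cell cannot be told apart.

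To compare levels between genes, CPM were divided by the exon length in kilobases that the table lists (RPKM). *Ccl5*, whose product attracts T cells and monocytes, was the most abundant of the 9 genes, at 2944 ± 260.5 RPKM in Ncr1gfp/gfp and 2896 ± 172 RPKM in Ncr1+/+ ILC1s (SD, n = 5 each). It ranked 6 among all 11463 tested genes by mean RPKM. *Xcl1*, which encodes the ligand of XCR1 on cross-presenting dendritic cells, followed at 1142 ± 103 and 1241 ± 93.1 RPKM and ranked 16. *Ccl4* and *Ccl3*, which encode macrophage inflammatory proteins, were at 247 ± 70.9 and 223 ± 46.6 RPKM and at 141 ± 23.9 and 153 ± 18.1 RPKM, in the same order of genotypes. These 4 genes ranked within the top 2.19% of tested genes. The level then dropped to *Csf1*, at 14.0 ± 0.84 and 14.8 ± 2.52 RPKM.

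The order *Ccl5*, *Xcl1*, *Ccl4*, *Ccl3*, *Csf1*, *Csf2* held in each of the 10 libraries. *Ccl5* exceeded *Xcl1* by 2.23 to 2.82 times in RPKM, *Xcl1* exceeded *Ccl4* by 3.73 to 7.13 times, *Ccl4* exceeded *Ccl3* by 1.23 to 2.14 times and *Ccl3* exceeded *Csf1* by 7.84 to 14.6 times. Below *Csf2* the order was not fixed. *Csf2* was above *Ccl1* in 7 of 10 libraries, and *Ccl1* was above *Cxcl10* in 4 of 10, so the levels of these neighbours did not differ beyond their spread. 

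**Figure D1:**
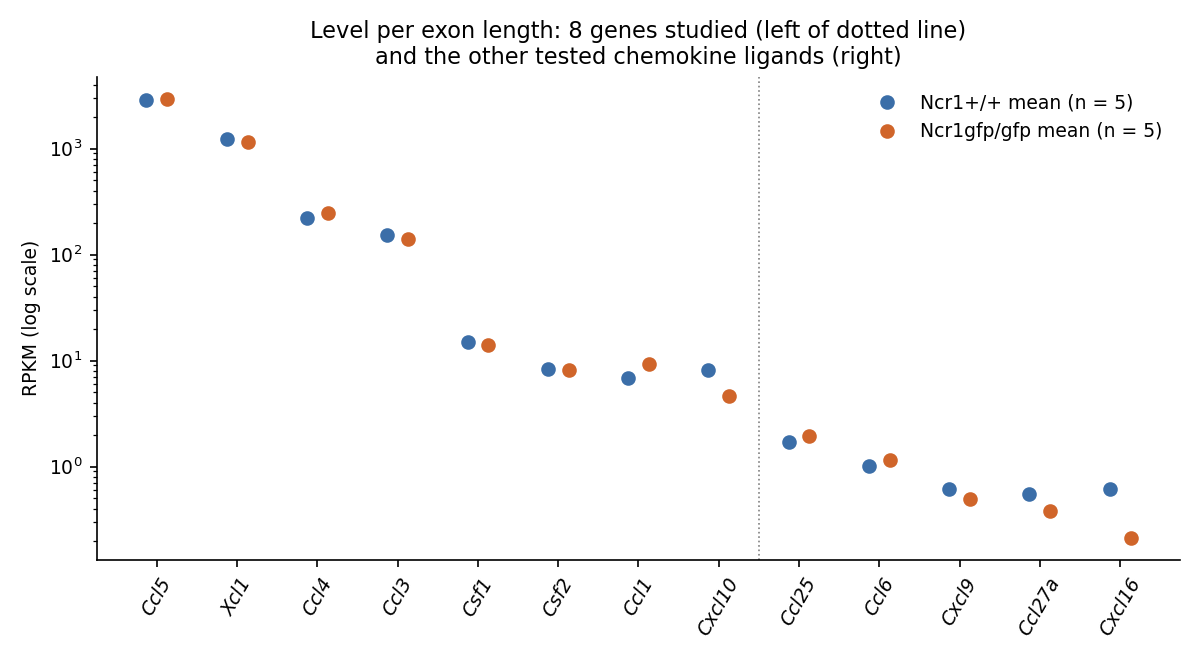
Mean RPKM (log scale) of the 8 tested genes studied, left of the dotted line, and of the 5 other tested chemokine ligands, right of it, in Ncr1+/+ (blue) and Ncr1gfp/gfp (orange) ILC1s, n = 5 libraries each. *Ccl5*, *Xcl1*, *Ccl4* and *Ccl3* lie above 100 RPKM in both genotypes, and the other ligands lie near or below 2 RPKM.

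The transcripts of 36 chemokine ligands could be read from the table, the 7 studied here and 29 others. Of their summed RPKM, *Ccl5* held 61.7% to 67.8%, *Xcl1* 23.6% to 28.4%, *Ccl4* 3.75% to 7.27% and *Ccl3* 2.81% to 3.81% over the 10 libraries. Together, these 4 genes held 99.2% to 99.8% of the ligand transcripts in every library. The share of *Xcl1* was 23.6% to 27.2% in Ncr1gfp/gfp and 26.7% to 28.4% in Ncr1+/+ ILC1s (two-sided exact permutation test, p = 0.0873), and that of *Ccl5* was 61.7% to 67.8% and 62.1% to 66.2% (p = 0.214, same exact permutation test). Adjusted over the 4 shares tested, these p-values were 0.349 and 0.37.

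*Ccl5*, *Ccl4*, *Ccl3*, *Ccl1* and *Csf2* are listed on chromosome 11, *Cxcl10* and *Cxcl2* on chromosome 5, *Csf1* on chromosome 3 and *Xcl1* on chromosome 1. The build of the table's coordinates is not named, and none of the 9 genes has the start that RefSeq gives in GRCm38.p6. The paper's methods name mm10 as the genome used for mapping, and this difference was not resolved. In the table, *Ccl5* runs from 83339281 to 83344020 on the minus strand, *Ccl3* from 83461345 to 83462880 on the minus strand and *Ccl4* from 83476086 to 83478185 on the plus strand, with *Ccl9* and *Ccl6* listed between *Ccl5* and *Ccl3*. *Ccl3* and *Ccl4* are next to each other in this list, 13206 bases apart. The genes of this cluster differed in level. *Ccl9* had at most 1.15 CPM and *Ccl6* at most 4.34 CPM in any library.

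The comparison of Ncr1gfp/gfp with Ncr1+/+ ILC1s asked whether the loss of NKp46 goes with a change of these transcripts. None of the 8 tested genes was called, which took an adjusted p under 0.05 together with a fold outside 0.7 to 1.5, where 0.733% of all tested genes were called by the quasi-likelihood test of edgeR, the source of all adjusted p-values given here. None had an adjusted p under 0.05 alone, against 1.35% of all tested genes, and none had values without overlap between the genotypes, against 3.11%. DESeq2 and limma-voom called none either. *Cxcl10* was the 1 gene with an unadjusted p under 0.05 in edgeR and in DESeq2, and *Xcl1* joined it in limma-voom, while 11.4% of all tested genes had such a p in edgeR. In Ncr1gfp/gfp ILC1s 5 of the 8 had values below those of Ncr1+/+ ILC1s on average and 3 had values above. Of all tested genes, 49.3% were lower. The median log2 fold change of the 8 was -0.06 against 0.0027 over all tested genes.

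**Figure D2:**
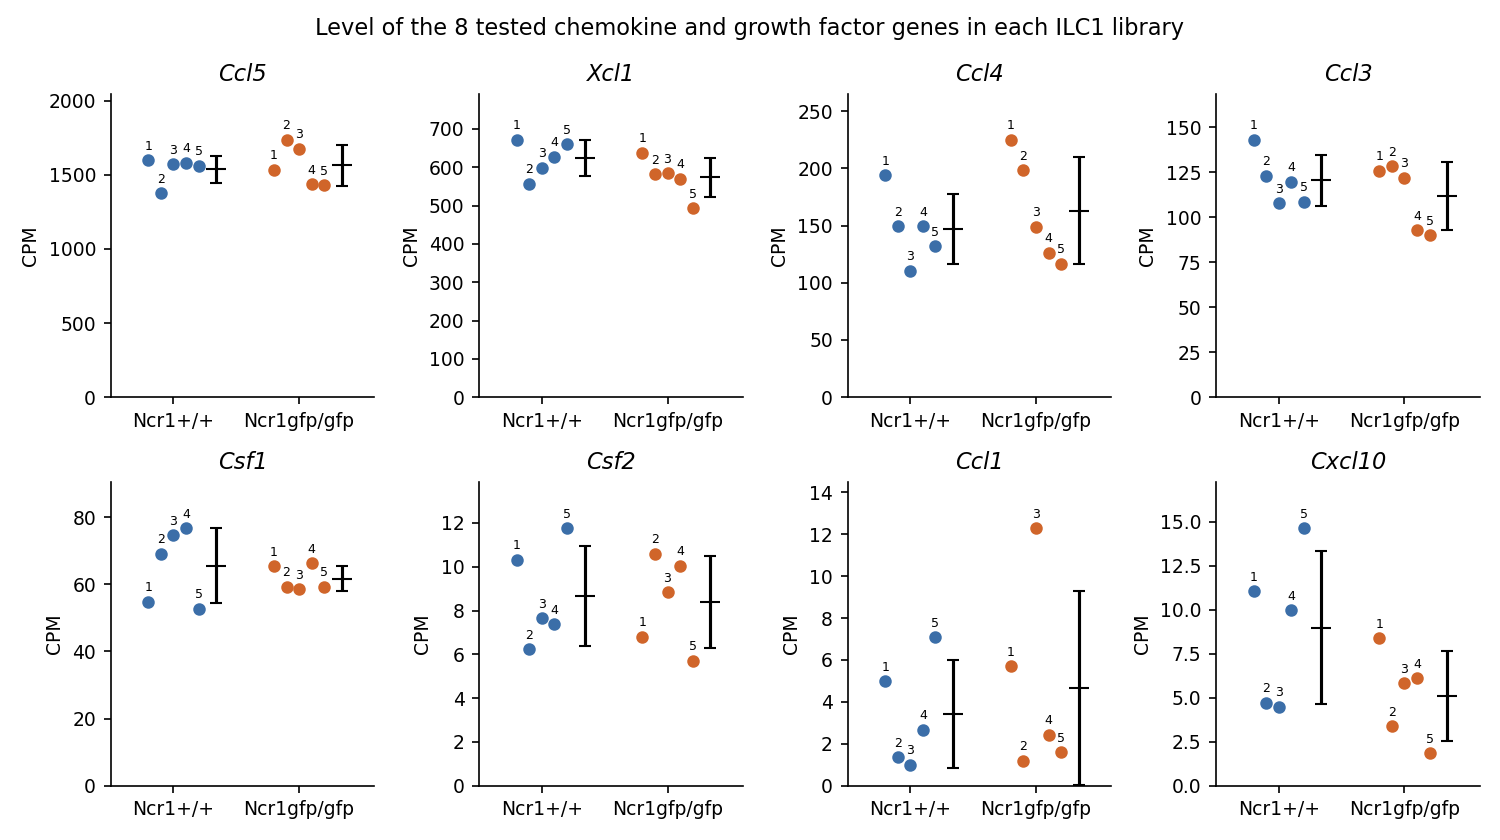
CPM of the 8 tested genes in each library, with the replicate number above each point and the mean ± SD of the 5 libraries as a black bar beside them, for Ncr1+/+ (blue) and Ncr1gfp/gfp (orange) ILC1s. The points of the genotypes overlap in every panel.

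*Xcl1* had 672, 557, 599, 627 and 661 CPM in Ncr1+/+ replicates 1 to 5 and 638, 581, 584, 570 and 494 CPM in Ncr1gfp/gfp replicates 1 to 5. The lowest library was an Ncr1gfp/gfp library and the highest an Ncr1+/+ library, but 4 of the 5 Ncr1gfp/gfp libraries lay within the Ncr1+/+ range. The log2 ratio of Ncr1gfp/gfp to Ncr1+/+ was -0.12 ± 0.06 (SE; adjusted p = 0.496), with a 95% interval of the fold from 0.84 to 1.01. Omitting 1 library moved the log2 fold change between -0.16 (without Ncr1gfp/gfp replicate 1) and -0.07 (without Ncr1gfp/gfp replicate 5). The smallest adjusted p of these fits was 0.2998.

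*Ccl5* had 1600, 1376, 1571, 1581 and 1560 CPM in Ncr1+/+ replicates 1 to 5. In Ncr1gfp/gfp replicates 1 to 5 it had 1535, 1736, 1677, 1438 and 1431 CPM. Both the highest values and the values next to the lowest were from Ncr1gfp/gfp libraries, so that the Ncr1gfp/gfp range covered all Ncr1+/+ libraries but replicate 2. The fold change was 1.02, with a 95% interval from 0.94 to 1.10 (adjusted p = 0.931). With 24056 to 37973 counts per library, this fold had the narrowest interval of the 8 tested genes.

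*Ccl3* had 143, 123, 108, 120 and 109 CPM in Ncr1+/+ and 126, 128, 122, 92.7 and 89.9 CPM in Ncr1gfp/gfp replicates 1 to 5. *Ccl4* had 194, 149, 110, 149.6 and 132 CPM in Ncr1+/+ and 225, 198, 149, 126 and 117 CPM in Ncr1gfp/gfp replicates 1 to 5. For both genes, Ncr1gfp/gfp replicates 4 and 5 were low within their genotype and Ncr1+/+ replicate 1 was high within its own. The log2 ratio was -0.11 ± 0.10 for *Ccl3* and 0.15 ± 0.15 for *Ccl4* (SE; adjusted p = 0.777 and 0.798). The 95% intervals of the fold ran from 0.80 to 1.07 and from 0.89 to 1.38. Omitting 1 library moved the log2 ratio of *Ccl3* between -0.16 (without Ncr1gfp/gfp replicate 2) and -0.039 (without Ncr1gfp/gfp replicate 5 or Ncr1+/+ replicate 1), and that of *Ccl4* between 0.0077 (without Ncr1gfp/gfp replicate 1) and 0.27 (without Ncr1+/+ replicate 1).

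The libraries that were low or high were often the same ones for several genes. Ncr1gfp/gfp replicate 5 had the lowest level of its genotype for 6 of the 8 tested genes, namely *Xcl1*, *Ccl3*, *Ccl4*, *Ccl5*, *Cxcl10* and *Csf2*. How often this library was the lowest over all tested genes was not examined. The last number in its label is out of sequence with those of the other libraries, and the labels do not explain that number. Ncr1+/+ replicate 1 had the highest level of its genotype for *Xcl1*, *Ccl3*, *Ccl4* and *Ccl5*. It also had the highest *Fos* level of its genotype, 243 CPM, and the highest summed level of hepatocyte markers, 179 CPM. *Fos* was nearly as high, at 240 CPM, in Ncr1+/+ replicate 2, which had the lowest *Xcl1* and *Ccl5* of its genotype. The part of *Fos* or of hepatocyte markers in the chemokine levels of these libraries was not tested. The 9 genes together took 0.221% to 0.271% of all counts in Ncr1gfp/gfp and 0.229% to 0.267% in Ncr1+/+ libraries (two-sided exact permutation test, p = 0.841).

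*Csf1*, the growth factor of macrophages, had 54.8, 69.1, 74.5, 76.7 and 52.7 CPM in Ncr1+/+ and 65.3, 59.2, 58.5, 66.2 and 59.3 CPM in Ncr1gfp/gfp replicates 1 to 5. All Ncr1gfp/gfp libraries lay inside the Ncr1+/+ range, which was the wider one. The fold change was 0.94, with a 95% interval from 0.81 to 1.09 (adjusted p = 0.828), and its log2 ratio lay between -0.16 (without Ncr1+/+ replicate 5) and -0.025 (without Ncr1+/+ replicate 4). *Csf2*, which encodes GM-CSF, had 10.3, 6.22, 7.65, 7.37 and 11.8 CPM in Ncr1+/+ and 6.79, 10.6, 8.84, 10.1 and 5.71 CPM in Ncr1gfp/gfp replicates 1 to 5. Its genotypes overlapped over most of their range, and its fold change was 0.97, with a 95% interval from 0.71 to 1.33 (adjusted p = 0.971).

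*Cxcl10*, an interferon-induced ligand of CXCR3, had the largest difference of the 8 genes. Its level was 11.05, 4.72, 4.50, 9.99 and 14.6 CPM in Ncr1+/+ and 8.38, 3.38, 5.82, 6.13 and 1.84 CPM in Ncr1gfp/gfp replicates 1 to 5. The highest values, in Ncr1+/+ replicates 1, 4 and 5, were above all Ncr1gfp/gfp libraries, whereas Ncr1+/+ replicates 2 and 3 lay among them. The log2 ratio was -0.81 ± 0.35 (SE) with an unadjusted p of 0.0316 and an adjusted p of 0.358, and the 95% interval of the fold ran from 0.34 to 0.95. Over the fits that each omitted 1 library, this log2 ratio lay between -1.06 and -0.57 and the smallest adjusted p was 0.205. Macrophages also make *Cxcl10*, and the summed level of 12 Kupffer cell and macrophage markers was 12.5 to 56.1 CPM in Ncr1gfp/gfp and 16.7 to 84.1 CPM in Ncr1+/+ libraries. The order of the libraries differed between the marker sum and *Cxcl10*. Both were highest in Ncr1+/+ replicate 5, but Ncr1+/+ replicate 1, with the next highest *Cxcl10*, had the lowest sum of its genotype, 16.7 CPM. Among Ncr1gfp/gfp libraries the sum was highest in replicate 4, at 56.1 CPM, and *Cxcl10* in replicate 1, where the sum was 25.3 CPM. Their part in the level of *Cxcl10* was not tested.

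*Ccl1*, the ligand of CCR8, varied most within each genotype among the 8 tested genes. It had 4.99, 1.37, 1.00, 2.67 and 7.07 CPM in Ncr1+/+ and 5.71, 1.19, 12.3, 2.44 and 1.61 CPM in Ncr1gfp/gfp replicates 1 to 5, from 20 to 232 counts per library. The coefficient of variation was 99.5% in Ncr1gfp/gfp and 75.2% in Ncr1+/+ ILC1s, against 8.85% and 5.96% for *Ccl5*. Its log2 ratio of 0.45 ± 0.56 (SE; adjusted p = 0.848) became -0.33 without Ncr1gfp/gfp replicate 3. *Cxcl2*, a neutrophil attractant, had 5 counts in Ncr1+/+ replicate 4, or 0.252 CPM, and 0 counts in each of the other 9 libraries. In the 5 Ncr1gfp/gfp libraries a count of 0 allows a level of up to 0.137 to 0.190 CPM.

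**Figure D3:**
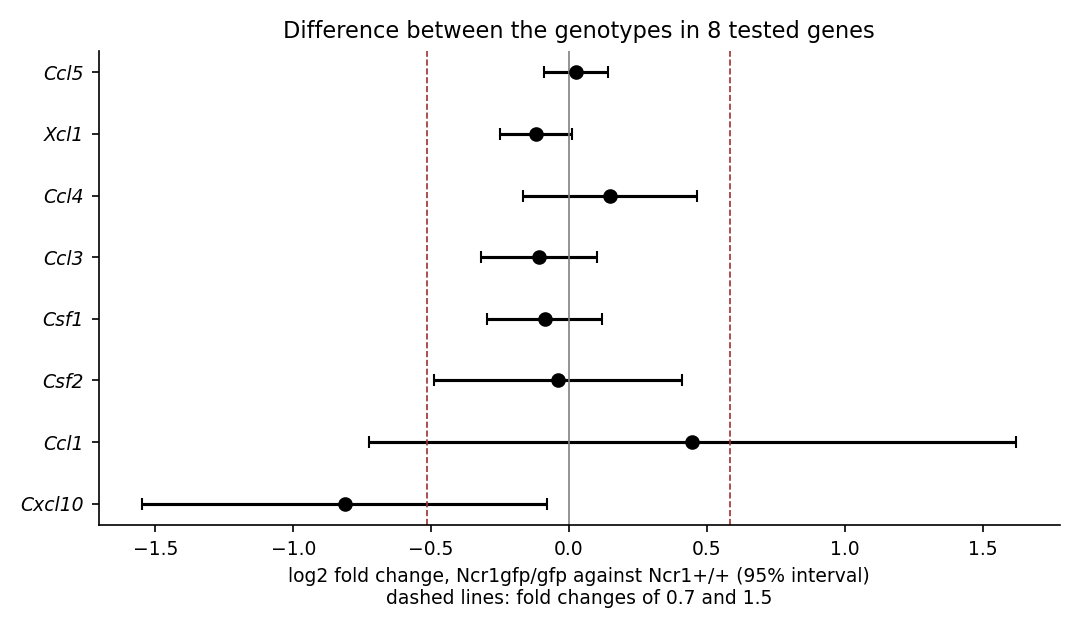
Log2 fold change of the 8 tested genes in Ncr1gfp/gfp against Ncr1+/+ ILC1s (points) with its 95% interval (bars), from edgeR's quasi-likelihood fit, with fold changes of 0.7 and 1.5 as dashed lines. The intervals of *Ccl5*, *Xcl1*, *Ccl4*, *Ccl3*, *Csf1* and *Csf2* lie between the dashed lines, and those of *Ccl1* and *Cxcl10* reach past one or both of them.

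The width of these intervals set what could be detected. For 6 of the 8 genes, namely *Xcl1*, *Ccl3*, *Ccl4*, *Ccl5*, *Csf1* and *Csf2*, the 95% interval of the fold lay within 0.7 to 1.5, as it did for 68.5% of all tested genes. For *Ccl1* the interval ran from 0.60 to 3.08 and for *Cxcl10* it began at 0.34, so that folds beyond 0.7, and for *Ccl1* also beyond 1.5, lay inside the intervals.

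Genes with a like pattern over the 10 libraries were sought by the mean absolute difference between log2 CPM centred on each gene's mean, among 9254 other tested genes at 5 CPM or more. For *Xcl1* these were *Cox7a2l*, *Fis1* and *Puf60*, with differences of 0.04, 0.04 and 0.05 against a mean deviation of *Xcl1* itself of 0.10. For *Ccl3* they were *Eef1a1*, *Eif3f* and *Lyar*, with differences of 0.07, 0.07 and 0.08 against 0.17. For *Ccl4* they were *Slc35g1*, *Naa38* and *Mms22l*, with differences of 0.10, 0.11 and 0.13 against 0.26, and its neighbour *Ccl3* ranked 17 of 9254, at 0.15. From the side of *Ccl3*, the same difference put *Ccl4* at rank 1147, behind *Xcl1* at 439 and *Ccl5* at 544. The differences were close, at 0.155, 0.135 and 0.140. This measure counts the size of the deviations as well as their direction, and the mean deviation was 0.26 for *Ccl4* and 0.17 for *Ccl3*. The ranks therefore do not show which gene shares most of the ups and downs of *Ccl3*. None of the 9 named genes had an adjusted p under 0.05 between the genotypes.

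Of the 29 other chemokine ligands in the table, 10 had no count in any library, 20 were under 1 CPM in every library (the 10 included) and 5 were tested. None had an adjusted p under 0.05. The most abundant were *Ccl25*, *Ccl6*, *Cxcl9* and *Cxcl16*, with mean levels between 0.384 and 2.49 CPM in either genotype. *Cxcl16*, the ligand of CXCR6, was at 0.384 ± 0.436 CPM in Ncr1gfp/gfp and 1.11 ± 0.188 CPM in Ncr1+/+ libraries (SD over 5 libraries), with an adjusted p of 0.425. 

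Of 13 receptors and co-receptors that bind the products of the studied genes, 7 were tested. *Cxcr3*, the receptor of CXCL10, was at 289 ± 23.03 CPM in Ncr1gfp/gfp and 306 ± 16.9 CPM in Ncr1+/+ ILC1s (adjusted p = 0.685). *Csf2ra*, a GM-CSF receptor chain, was at 12.9 ± 1.90 and 14.6 ± 1.48 CPM. *Xcr1* was under 1 CPM in every library. Of the 7 tested genes, 5 had a log2 fold change below 0. The 1 gene of this list with an adjusted p under 0.05 was *Sdc4*, a heparan sulfate proteoglycan that can bind chemokines. It had 8.36 to 13.9 CPM in Ncr1gfp/gfp and 18.5 to 23.8 CPM in Ncr1+/+ libraries, without overlap, and a log2 ratio of -0.82 ± 0.15 (SE; adjusted p = 0.00462).

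Among 24 other cytokine genes of lymphocytes, 11 were tested and none had an adjusted p under 0.05, with a median log2 fold change of -0.07. The most abundant, *Tnfsf10*, *Fasl*, *Ltb* and *Tgfb1*, had log2 fold changes of 0.09, 0.14, -0.15 and -0.06. *Ifng*, which encodes interferon-γ and is named after its values were seen, had the value nearest to the threshold. It was at 104 to 175 CPM in Ncr1gfp/gfp and 133 to 203 CPM in Ncr1+/+ libraries, with a log2 ratio of -0.44 ± 0.12 (SE; adjusted p = 0.0683). It passed with no filter on low counts, with at least 10 counts in every library, and with the replicate number as a block. It did not pass in DESeq2, in limma-voom or with upper-quartile scaling.

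Many chemokine genes are induced by NF-κB, NFAT and AP-1 factors, and some of their mRNAs are short-lived through proteins that bind AU-rich elements. Of 33 transcription factors of these and related families, all tested, 3 had an adjusted p under 0.05, against 1.35% of all tested genes. All 3 fell in Ncr1gfp/gfp ILC1s. These were *Fos* and *Junb*, subunits of AP-1, and *Nr4a3*, an orphan nuclear receptor, with log2 fold changes of -1.21, -0.46 and -0.49 (adjusted p = 0.0377, 0.0334 and 0.0175). Omitting 1 library at a time took *Fos* and *Junb* past 0.05 in 7 fits of 10 each, and *Nr4a3* in 4. For all 3 genes these included the fits without Ncr1gfp/gfp replicate 5 and without Ncr1+/+ replicates 1 or 4, and the largest adjusted p was 0.125, 0.105 and 0.0644. *Fos* and *Junb* did not pass in DESeq2 or limma-voom, whereas *Nr4a3* passed in both, and DESeq2 passed *Rela*, *Nr4a2* and *Irf8* of this list in their place. The abundant *Nfatc1*, *Nfatc3* and *Jun* had log2 fold changes of -0.04, -0.04 and -0.39 and did not pass. The median of the 33 was -0.13. This list was chosen with earlier results of these data known, so its share of genes that passed is not independent evidence.

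Of 12 mRNA decay and stability factors, *Zfp36*, which encodes the AU-rich element binding protein tristetraprolin, fell by 0.58 on the log2 scale. It was at 126 ± 10.4 CPM in Ncr1gfp/gfp and 189 ± 51.6 CPM in Ncr1+/+ libraries (SD over 5 libraries; adjusted p = 0.0179), and its ranges overlapped. Without Ncr1gfp/gfp replicate 3 its adjusted p was 0.054, and it did not pass in DESeq2. The other 11 did not pass, and the most abundant of them, *Zfp36l2*, *Rc3h1*, *Khsrp* and *Zfp36l1*, had log2 fold changes of 0.05, 0.12, -0.08 and -0.18. Of 25 immediate early genes, 5 had an adjusted p under 0.05 and all 5 fell, namely *Nfkbiz*, a nuclear regulator of NF-κB, with a log2 fold change of -0.47 (adjusted p = 0.00393), and the *Fos*, *Junb*, *Nr4a3* and *Zfp36* already given. Of all tested genes, 1.35% had an adjusted p under 0.05 in either direction and 49.3% were lower. The median of the 25 was -0.46, with 23 of 25 lower. The median was -0.06 for the 8 chemokine and growth factor genes and 0.0027 for all tested genes. The difference between these medians was not tested. The immediate early list, too, was chosen with earlier results of these data known, and it repeats genes of the lists before it.

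**Figure D4:**
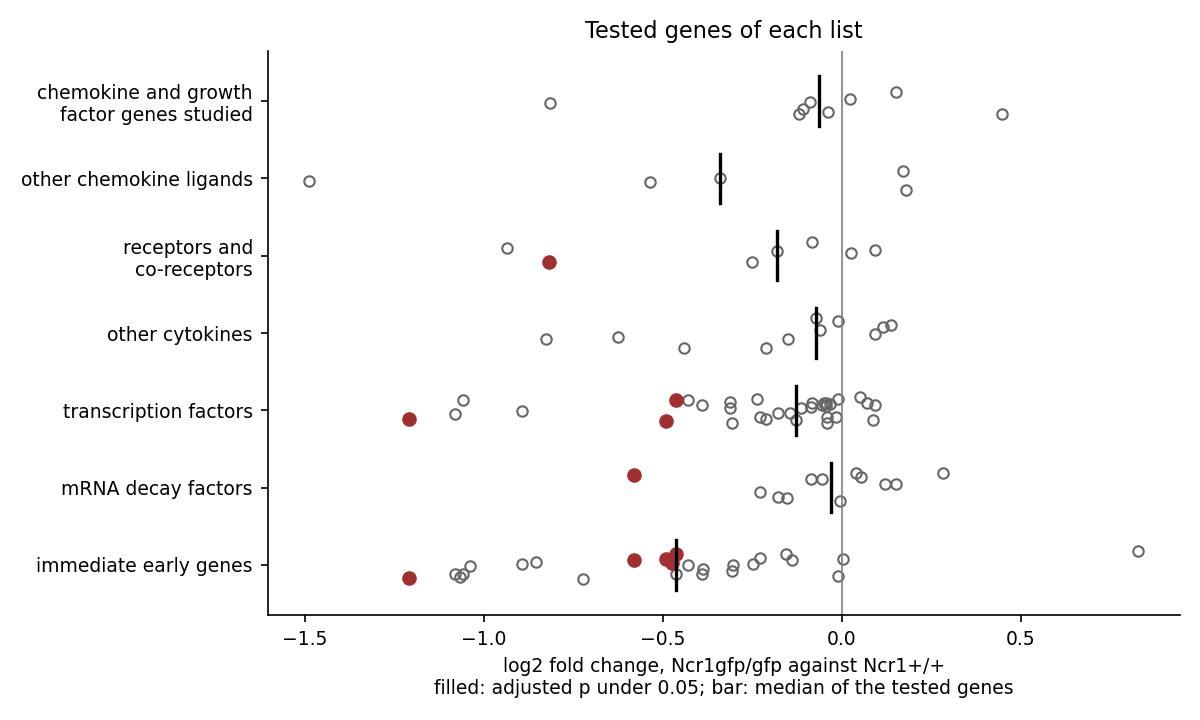
Log2 fold change in Ncr1gfp/gfp against Ncr1+/+ ILC1s of each tested gene of the 7 gene lists, with filled points for an adjusted p under 0.05 and a bar at the median of the list. The 8 studied genes, in the top row, have no filled point, and the filled points of the other lists are all to the left of 0.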

How the data were processed

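RNA-seq counts of 5 Ncr1+/+ and 5 Ncr1gfp/gfp ILC1 libraries were analysed. As their methods describe, the authors made polyA RNA-seq libraries with a SMART-Seq low input kit (2 ng RNA a sample), read 51 cycles from one end, trimmed adapters and polyA tails, mapped the reads with STAR to the mouse genome (mm10) and counted them per gene with HTSeq at its default settings. The authors deposited these counts without normalization, with an exon length per gene. By default HTSeq skips multi-mapping reads, which can lower the counts of near-identical genes.

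Genes kept by filterByExpr were scaled by TMM to CPM and tested in R 4.3.3 with edgeR 4.0.16 (quasi-likelihood), with genotype as the only term and Benjamini-Hochberg adjustment over 11463 genes. Calls used the thresholds of the study's methods. Standard errors were derived from the F statistic, and 95% intervals from these and the t distribution of the fit. The steps were tested on simulated data. For a single value the two-sided exact permutation test was used, and 5 against 5 libraries cannot give a p below 0.00794. In all 20 same-genotype pairs, counts differed beyond sampling noise.

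The alternatives were DESeq2 1.42.0, voom with quality weights (limma 3.58.1), upper-quartile scaling, 2 other filters, a replicate block, other thresholds and leaving out each library. Their use on the count over the context lists was added after the data were examined. The studied genes and all gene lists were chosen with earlier results of these data known. Named are all 9 genes, the genes of each context list with an adjusted p under 0.05, up to 4 of its most abundant genes, the 3 genes of most like pattern for *Xcl1*, *Ccl3* and *Ccl4*, and *Ncr1*. *Ccl9*, *Xcr1*, *Eomes* and *Cd8a* among the marker and neighbour genes were named for their position or role. Of the listed genes, 5 were not analysed here and 1 receptor gene is not reported here. Of the marker lists not described elsewhere, the B cell markers summed to at most 6.26 CPM. The neutrophil markers summed to at most 12.3 CPM in Ncr1gfp/gfp and 1.41 CPM in Ncr1+/+ libraries. The hepatocyte markers summed to 123 to 208 CPM and 135 to 179 CPM, most of it *Trf*, at 120 to 146 CPM over all libraries. *Alb* was at 38.0 CPM in Ncr1gfp/gfp replicate 3, 28.0 CPM in Ncr1+/+ replicate 1 and 0.971 to 4.69 CPM in all others. The dendritic cell markers, nearly all *Itgax* (adjusted p = 0.000539, higher in Ncr1gfp/gfp), summed to 1651 to 1767 CPM in Ncr1gfp/gfp and 1329 to 1461 CPM in Ncr1+/+ libraries, without overlap. The endothelial markers, nearly all *Pecam1*, summed to 128 to 151 CPM and 113 to 147 CPM.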

Additional observations from a re-analysis of the deposited data

Results flagged for a closer look

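Levels of the studied genes, *Ncr1*, the named genes of the context lists, library totals and marker sums were searched for a library lying apart from the other 4 of its genotype, taking its distance to the next value as a share of the whole spread. Of 92 groups of 5 libraries, 6 passed the limit of 0.71, where 4.6 would by chance.

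Among the studied genes this was *Ccl5* in Ncr1+/+ replicate 2, at 1376 CPM against 1560 CPM in the nearest library. Ncr1gfp/gfp replicate 3 stood apart in the neutrophil marker sum, at 12.3 CPM against 2.62 CPM, in the hepatocyte marker sum, at 208 CPM against 147 CPM, and in *Zfp36l1*, at 217 CPM against 195 CPM. It was also the library with the highest *Ccl1*, at 12.3 CPM. Ncr1+/+ replicate 1 stood apart in the hepatocyte marker sum, at 179 CPM against 146 CPM. *Tnfsf10* was at 845 CPM in Ncr1gfp/gfp replicate 1, against 807 CPM.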

How the results depend on the processing

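None of the 8 tested genes was called under any of the 16 alternatives, and the direction was the main one in 119 of 128 values. The exceptions were *Ccl5*, at -0.0016 with limma-voom and between -0.016 and 0.054 with each library left out, *Csf2*, between -0.14 and 0.10, and *Ccl1*, between -0.33 and 0.90. The cause was not tested. The number of genes called in the whole table was 84, and became 131 with no filter on low counts, 155 with no limit on the fold and 23 with an absolute log2 fold change above 1. It was 60 to 98 with each library left out. Of the context lists, 6 genes had an adjusted p under 0.05, 9 did with DESeq2, 7 with limma-voom, 9 with the replicate block, 14 with no filter, and 3 to 10 did with each library left out, with 3 without Ncr1gfp/gfp replicates 3 or 5 or Ncr1+/+ replicates 1 or 4 and 10 without Ncr1+/+ replicate 5. *Sdc4*, *Nr4a3* and *Nfkbiz* passed under each of these tools, filters and scalings and with the block, and DESeq2 lost *Fos*, *Junb* and *Zfp36* and passed *Rela*, *Nr4a2*, *Irf8*, *Mapkapk2*, *Dusp5* and *Myc*. The cause was not tested.

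The replicate numbers shared by the genotypes showed no sign of pairing the libraries. Same-numbered libraries had correlations of their deviations between -0.03 and 0.05, and other pairs between -0.07 and 0.09. Such a check cannot exclude a weak pairing. With the number as a replicate block, 87 genes were called and none of the 8 genes was, and the log2 fold change of *Cxcl10* was -0.77. With the block, *Fos* did not pass and *Ifng* did. *Cxcl2* had too few counts to be tested.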

Other observations

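The balance of *Ccl4* to *Ccl3*, adjacent genes on chromosome 11, was examined after the values had been seen. Ncr1+/+ replicates 1 to 5 had RPKM ratios of 1.62, 1.45, 1.23, 1.495 and 1.45. Ncr1gfp/gfp replicates 1 to 5 had ratios of 2.14, 1.85, 1.46, 1.63 and 1.56. The ranges overlapped, and the difference did not pass a two-sided exact permutation test (p = 0.0635).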
